A study of Rattus norvegicus with 2 samples.

Results

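The host genes described here are the rat genes that gave rise to 5 or more circRNAs in lung tissue. A host was taken from the table when it was the only gene name given for a circRNA and when this held for at least 5 circRNAs. Of 2323 single host names, 80 were members, and they held 501 of the 4734 circRNAs, or 10.6%. Eln, which met the same rule with 21 circRNAs, was left out. Most members lay just inside the limit: 39 hosts had 5 circRNAs, 18 had 6 and 13 had 7, while 86 hosts had 4 and fell just outside it. The hosts with 5 circRNAs had a median of 68 reads over both libraries, those with 4 a median of 63.5. The number of circRNAs per host is what chose the members and is not a result.

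A circRNA forms when the spliceosome joins the end of an exon back to the start of the same exon or of an exon further upstream, which closes the RNA into a ring. The junction made in this way is called a back-splice junction, and its genomic start and end identify the circRNA. A gene with many exons can use several such start and end positions, so a single host can give a family of rings that share exons. Rings have no free end, which makes them resistant to exonucleases such as RNase R, and they are often more stable than the linear transcript of the same gene.

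Lung tissue came from SD rats that received PBS (Sham) or LPS at 2 mg/kg (LPS) by intratracheal spray, a model of acute lung injury, and was taken after 24 h. The study used 12 rats in 2 groups, and each group is represented by 1 circRNA library. The number of rats behind a library is not stated. According to the labels, ribosomal RNA was removed, linear RNA was digested with RNase R and the strand was marked with dUTP, whereas the methods describe a SmartPCR kit with RsaI digestion. With 1 library per group there is no replicate error, so no difference below has a replicate check and no p-value is given.

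The Sham library held 38112 junction reads and the LPS library 52505, so that 1 read was worth 26.2 CPM (reads scaled to a library total of 1000000) in Sham and 19.0 CPM in LPS. A circRNA with 0 or 1 read is set to a fill-in value of 0.001 in the table and was counted as 0. Folds against the fill-in are lower bounds for the fill-in side only, taken at 4.74 reads, the upper 95% limit of a Poisson count of 1. The reads of the other library enter as observed, so its counting error is not in these bounds. Intervals of shares are 95% Wilson intervals. Such intervals and limits describe counting error alone, because copies made by PCR were not told apart from separate molecules. The junctions of a host share their source and often their ends, and are not replicates of each other.

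The label of the tissue was compared with circRNAs that name a marker gene as their only host. Of 8 markers of alveolar type 2 cells, 3 had a circRNA, each with few reads and in 1 library only. Sftpc, a surfactant protein, had 5 Sham and 0 LPS reads, Sftpd 2 and 0, and Abca3 0 and 3. Of 6 endothelial markers, 3 had a circRNA, and they went different ways: Flt1, a receptor of VEGF, had 67 Sham and 165 LPS reads, Vwf 58 and 53, and Tek 18 and 2. No such circRNA was found for 5 airway epithelial markers, 5 markers of cardiac or skeletal muscle or 3 liver markers. Among circRNAs with several host names, 1 named the muscle marker Neb, with 4 Sham and 0 LPS reads, 1 named Vwf and 1 named Mrc1, and the other markers were not named. Of 4 neutrophil markers, Csf3r had a circRNA, with 0 Sham and 25 LPS reads, whereas S100a8, S100a9 and Mmp8 had none. The macrophage marker Mrc1 had 2 and 2 reads, and the lymphocyte marker Bcl11b 13 and 7. The members themselves included Rtkn2, a marker of alveolar type 1 cells, and Col3a1, the collagen of fibroblasts. The fibroblast and smooth muscle markers did not move together, since Col3a1 had 70 Sham and 2 LPS reads, Npnt 11 and 57, and Pdgfra 0 and 2. In whole lung, fewer cells of a type and less RNA per cell cannot be told apart, and the part of cell composition in the differences below was not tested.

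The 80 hosts lay on 18 chromosomes, each on a single chromosome, with 10 hosts on chromosome 1. Together they held 8366 of the Sham reads (22.0%) and 9430 of the LPS reads (18.0%). Gigyf2, which represses translation of bound mRNAs, accounted for much of this difference, and without it the shares were 15.6% and 15.1%. Reads per host ranged from 14 to 3911 over both libraries, with a median of 108. After Gigyf2 came Gtf2i, the transcription factor TFII-I, with 680 Sham and 930 LPS reads, and Crim1, a transmembrane protein that binds bone morphogenetic proteins, with 263 and 482. Uvrag, a subunit of the lipid kinase complex of autophagy, had 323 and 384 reads, and Ubn2, a subunit of a histone chaperone, had 323 and 362. The median junction of a member spanned 9332 nt between its ends, introns included, against 4094 nt for all other circRNAs.

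In most hosts a single junction held the larger part of the reads. Among the 77 hosts with at least 10 Sham reads, the most-read junction held a median of 52.4% of the reads of its host (quartiles 45.0% and 66.7%). Among the 70 hosts with at least 10 LPS reads the median was 62.6% (50.6% and 79.2%). The leading junction held over 50% in 43 of the 77 hosts in Sham and in 52 of the 70 in LPS. Of the 69 hosts with at least 10 reads in each library, 43 had a higher leading share in LPS and 26 a lower one, and the median difference was 3.95 percentage points. Hosts with 2 to 4 circRNAs, which have fewer junctions to divide their reads, had medians of 76.9% in Sham and 81.6% in LPS. For hosts with 8 or more junctions the medians were 42.4% in Sham (10 hosts) and 40.4% in LPS (9 hosts).

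Ubn2 and Gigyf2 were the hosts closest to a single product. The Ubn2 junction from 66172555 to 66180964 on chromosome 4 had 308 of 323 Sham reads, or 95.4% (92.5 to 97.2), and 357 of 362 LPS reads, or 98.6% (96.8 to 99.4). The leading Gigyf2 junction held 97.1% (96.3 to 97.7) of 2414 Sham reads and 95.7% (94.5 to 96.6) of 1497 LPS reads. Both hosts therefore had the same leader in either library, with the remaining junctions near the limit of listing in Ubn2. Stag1, a cohesin subunit, had 40 of 46 Sham reads and 110 of 121 LPS reads on a single junction, 87.0% and 90.9%. Ikzf1, the lymphoid transcription factor Ikaros, stood at 88.5% and 88.8%, and Ttc3, a ubiquitin ligase, at 86.8% and 88.0%. For Acbd6, an acyl-CoA binding protein, the share was 83.2% (77.2 to 87.9) in Sham and 91.4% (86.3 to 94.7) in LPS, and these intervals overlap.

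At the other end stood hosts whose reads were spread over many junctions. Arhgap10, a GTPase activating protein, had 10 junctions, and its leader, from 34270069 to 34298610 on chromosome 19, held 33.5% (27.4 to 40.2) in Sham and 33.0% (28.1 to 38.4) in LPS. A short junction of the same gene, from 34207716 to 34207946, had 43 Sham and 101 LPS reads, which made it nearly equal to the leader, with 104, in LPS. Ehmt1, a histone H3 lysine methyltransferase, had leading shares of 30.9% and 31.9% with the same leader in both libraries. Among hosts with at least 30 reads in each library, the lowest mean share belonged to Rere, a corepressor of the atrophin family, at 27.3% and 28.4%, and there the leading junction was not the same.

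Crim1, with 15 junctions, shows how reads divide within a large family. Its leader on chromosome 6, from 904491 to 907083, had 104 Sham reads and 204 LPS reads, 39.5% (33.8 to 45.6) and 42.3% (38.0 to 46.8) of the host. The junction from 894593 to 907083 had 15 and 97 reads, which is 394 CPM in Sham (239 to 649) against 1847 in LPS (1515 to 2253). In contrast, the junction from 828602 to 872927 had 27 and 29 reads, and that from 871525 to 894714 had 16 and 13. Within Crim1, 2 of the 10 junctions with at least 10 reads over both libraries were at least 2-fold higher in LPS and 2 were at least 2-fold lower.

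Prex2, an exchange factor for Rac, also had 15 junctions, and its most-read ones had fewer reads in LPS. The host had 181 Sham reads (4749 CPM) and 62 LPS reads (1181 CPM). Its leader, from 7777226 to 7780390 on chromosome 5, had 82 Sham and 23 LPS reads, 45.3% (38.2 to 52.6) and 37.1% (26.2 to 49.5) of the host. The junction from 7763385 to 7764306 went from 37 reads to 6, and of the 6 Prex2 junctions with at least 10 reads over both libraries 4 were at least 2-fold lower and 0 at least 2-fold higher. Gtf2i, with 14 junctions, was near the same level in both libraries. Its leader, from 25442325 to 25447480 on chromosome 12, was at 11335 CPM in Sham and 11123 CPM in LPS, and its next junction, from 25431710 to 25435591, at 4880 and 5333 CPM.

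Junctions of a host often used the same start or the same end. Here start and end are the lower and the higher genomic position, since the table gives no strand. The 501 junctions used 341 distinct starts and 376 distinct ends, and 367 of them, or 73.3%, had a start or an end that another junction of the same host also used. Of these, 275 lay on a shared start, 217 on a shared end and 125 on both. Among hosts with 2 to 4 circRNAs, 937 of 1815 junctions, or 51.6%, lay on a shared position. This share rises with the number of junctions that can match, and counted by pairs the order was the other way. Of 1488 pairs of junctions within members, 221 shared a start and 168 an end, together 26.1%, against 37.7% of the 1508 pairs in hosts with 2 to 4.

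Ends were reused less than starts: 39 hosts had more distinct ends than starts, 18 had more starts than ends and 23 had equal numbers. In 21 hosts every junction lay on a shared start or end, among them Crim1, Gigyf2, Phkb, App and Rtkn2. Only Col3a1 and Ptprm, a receptor-type phosphatase, had no shared position among their junctions. The leading junction was on a shared position in 57 of 77 hosts in Sham and in 60 of 70 in LPS. It had the shortest span of its host in 23 hosts in Sham and in 18 in LPS, and the longest in 6 and 5.

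The most used positions belonged to Crim1, where 6 junctions ended at 907083 and 5 began at 828602. The 6 junctions ending at 907083 held 182 of 263 Sham reads and 398 of 482 LPS reads. In Gigyf2, 5 of 6 junctions began at 94463647 on chromosome 9, and these 5 held 2408 of 2414 Sham reads and all 1497 LPS reads. In Gtf2i, 5 junctions began at 25442325 and held 475 Sham and 624 LPS reads. Rere used a start at 167486001 on chromosome 5 for 5 junctions that reached ends between 167526275 and 167615430, the longest spanning 129430 nt. The amyloid precursor gene App used a start at 24479964 on chromosome 11 for 4 junctions, yet these held only 19 Sham and 23 LPS reads. Most App reads lay on the 2 junctions that ended at 24550752, with 82 and 259.

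Uxs1 and Phkb were built the other way, around a common end. Uxs1, the enzyme that makes UDP-xylose for proteoglycans, had 5 distinct starts and 2 ends on chromosome 9, and 4 junctions ended at 11219449 with all 156 Sham reads and 378 of 383 LPS reads. Its leader from 11209034 had 143 Sham and 283 LPS reads, while the junction from 11217254 was at the fill-in in Sham and had 64 reads in LPS, at least 9.79-fold higher. The share of the leader was therefore 91.7% (86.3 to 95.1) in Sham and 73.9% (69.3 to 78.0) in LPS. Phkb, the beta subunit of phosphorylase kinase, used 6 starts and 2 ends on chromosome 19, with 4 junctions ending at 22179584 and holding 33 of 36 Sham reads and 81 of 83 LPS reads.

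The other pairs of junctions shared no position. Of the 1488 pairs, 814 lay apart, 103 were nested and 182 crossed, that is, the later of the pair began inside the earlier and ended beyond it. Crossing pairs occurred in 57 hosts and overlapped by a median of 1249 nt. In 78 of the 182 the overlap was at most 300 nt. An example is Gtf2i, where the junction ending at 25431848 and the junction starting at 25431710 overlapped by 139 nt. Positions that differed by 10 bases or less without being equal were found in 4 hosts. Among them, in Ubn2 starts lay 3 bases apart, in Gigyf2 ends 4 bases apart, and in Ptms ends 3 or 6 bases apart. The Ubn2 junction from 66172558 had 3 Sham reads.

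The leading junction was compared between the libraries in the 69 hosts with at least 10 reads in each. This comparison uses shares within a library and does not depend on the scale between libraries. The same junction led in 49 hosts, another junction in 15, and 5 hosts had a tie. Leaving out ties, another junction led in 23.4% of the members, against 20.5% of the 346 hosts of the whole table with 2 or more circRNAs and the same reads. In 7 hosts the intervals of the shares of both leaders were apart between the libraries, which is called a clear switch. With ties left out this is 10.9% of 64 members, close to the 10.1% of the 346 hosts. Each leader was picked by the same reads that give its interval, which favours a high share where it leads. Intervals that are apart are therefore a description and not a test. The 7 clear switches were in Lrp6, Strn3, Ptms, Rtkn2, Ltbp1, Sbno1 and Ankrd44. The 15 hosts had a median of 99 reads over both libraries, and the 49 hosts with an unchanged leader a median of 150. Of the 15 pairs of leaders, 4 shared a start or an end.

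Rtkn2, an effector of small GTPases and the only alveolar type 1 marker with a circRNA here, had the largest number of LPS reads on a new leader. The junction from 21951779 to 21959614 on chromosome 20 had 13 Sham reads, or 341 CPM (199 to 584), and 91 LPS reads, or 1733 CPM (1412 to 2127). It held 24.5% (14.9 to 37.6) of the Rtkn2 reads in Sham and 81.2% (73.0 to 87.4) in LPS. The Sham leader, from 21978047 to 21986948, had 15 reads in Sham and 9 in LPS, 28.3% (18.0 to 41.6) and 8.04% (4.29 to 14.6). The Sham reads of Rtkn2 were thus divided over several junctions, and those of LPS lay mostly on the first of these. The other alveolar type 1 markers, Ager, Hopx, Pdpn, Aqp5 and Cav1, were not named by any circRNA, alone or beside other genes. The part of cell composition in this change was not tested.

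Lrp6, a co-receptor of Wnt, switched between distant parts of the gene on chromosome 4. The junction from 168296980 to 168297373 had 69 Sham and 42 LPS reads, 67.6% (58.1 to 75.9) and 35.9% (27.8 to 44.9). The junction from 168219620 to 168221653 had 29 and 63 reads, 28.4% (20.6 to 37.8) and 53.8% (44.8 to 62.6). In Strn3, a regulatory subunit of protein phosphatase complexes, both leaders ended at 72430205 on chromosome 6. The longer, from 72418120, had 43 of 82 Sham reads (interval 41.8% to 62.9%) and 20 of 80 LPS reads (16.8% to 35.5%). The shorter, from 72429638 and spanning 568 nt, had 17 and 46 reads and went from 20.7% (13.4 to 30.7) to 57.5% (46.6 to 67.7). In Ptms, which encodes the small acidic protein parathymosin, both leaders began at 157436084 on chromosome 4. The junction ending at 157436610 had 26 Sham reads and was at the fill-in in LPS, at least 7.55-fold lower. The junction ending at 157436365 had 21 and 40 reads, 40.4% (28.2 to 53.9) and 85.1% (72.3 to 92.6).

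The remaining 3 clear switches rested on 13 to 17 Sham reads per host. In Ltbp1, which binds latent TGF-beta in the matrix, the junction from 21334766 to 21354603 on chromosome 6 was at the fill-in in Sham and had 36 of 39 LPS reads. The Sham leader of Ltbp1, from 21539861 to 21540152, had 9 of 16 Sham reads and 3 LPS reads. In Sbno1, a homologue of the fly gene strawberry notch, the leaders were at the fill-in of the other library, with 8 Sham reads for the junction from 37625064 to 37629278 on chromosome 12 and 29 LPS reads for that from 37628207 to 37628640. The same held for Ankrd44, an ankyrin repeat protein, with 6 Sham reads from 61249826 to 61250849 on chromosome 9 and 21 LPS reads from 61312543 to 61318404. Against the limit of the fill-in the LPS leaders of Ltbp1, Sbno1 and Ankrd44 were at least 5.51-fold, 4.44-fold and 3.21-fold higher. With the fill-in counted as 1 read, each of the 7 hosts still had a clear switch. With 99% intervals 5 had one, without Rtkn2 and Strn3, and with at least 30 reads in each library 4, namely Lrp6, Ptms, Rtkn2 and Strn3.

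In 8 further hosts another junction led, but at least 1 pair of intervals overlapped. They were Dcun1d4, Rere, Phkb, Fgfr2, Atrnl1, Ptpn12, Kdm1a and Nav2, and some of them are named here only because of this outcome. In Phkb the junction from 22177001 had 16 Sham and 19 LPS reads, 44.4% (29.5 to 60.4) and 22.9% (15.2 to 33.0), and that from 22172781 had 11 and 58, 30.6% (18.0 to 46.9) and 69.9% (59.3 to 78.7). The intervals of the Phkb junction from 22172781 were apart, and those of the junction from 22177001 overlapped. Fgfr2, a receptor of fibroblast growth factors that is active in lung epithelium, had its LPS leader from 200671013 to 200672411 on chromosome 1, with 10 Sham and 32 LPS reads, 18.5% (10.4 to 30.8) and 68.1% (53.8 to 79.6). The Fgfr2 leader of Sham had 14 and 3 reads. In Dcun1d4 both leaders began at 37238505 on chromosome 14, and the one ending at 37254001 had 14 Sham and 55 LPS reads. In Rere the Sham leader had 21 and 7 reads and the LPS leader 10 and 19.

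Ties left Asap2, Man1a2, Npepo, Plxdc2 and Ptk2 without a single leader in 1 library. For Ptk2, the focal adhesion kinase, 2 junctions led Sham with 5 reads each, and in LPS the junction from 114550936 to 114555976 on chromosome 7 had 37 of 42 reads, after 4 in Sham. Asap2, a GTPase activating protein of Arf, was similar, with the junction from 43278166 to 43284828 on chromosome 6 at 3 Sham and 38 of 42 LPS reads. The hosts not compared, because they had fewer than 10 reads in a library, were Adgrl3, Ank3, Arid1b, Col3a1, Cpsf1, Itga8, Limch1, Magi3, Ptprm, Senp6 and Tiam2. Of these 11 hosts, 10 fell short in LPS and 3 in Sham.

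An unchanged leader could still change its share. Among the 49 hosts, 27 had a higher leading share in LPS and 22 a lower one, and the intervals were apart in 8, higher in LPS in 5 (Adamts17, App, Arhgap32, Arhgef12 and Asph) and lower in 3 (among them Mef2a and Uxs1). Others with an unchanged leader were Arih1, Erc1, Evi5, Fam120a, Fchsd2, Hip1, Mapkap1, Mark3, Mkln1, Mllt10, Nckap5, Rps6ka5, Smarca2 and Vav3. For App the leader from 24547990 had 73 Sham and 230 LPS reads, 66.4% (57.1 to 74.5) and 80.4% (75.4 to 84.6). The matrix protease gene Adamts17, named after its values were seen, had 79 and 240 reads on its leader, and a junction from 128030898 to 128044918 on chromosome 1 went from 17 Sham reads to the fill-in. Agap1, an Arf GTPase activating protein, had 66.7% (58.9 to 73.6) and 78.9% (72.5 to 84.2), and its intervals overlapped.

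Levels were compared next, by the log2 ratio of LPS to Sham CPM with 0.5 reads added, which understates the change of junctions with few reads and depends on the pseudocount at the fill-in. Of the 501 junctions, 237 were listed in both libraries, 140 in Sham only and 124 in LPS only. Thus 47.3% were in both, against 35.9% of the 4233 other circRNAs. No interval is given for these 2 shares, because junctions of a host are not independent. Members had a median of 7 reads over both libraries and the others 5. At least 2-fold higher in LPS were 152 members (30.3%), against 35.7% of all circRNAs, and at least 2-fold lower were 221 (44.1%), against 43.3%. The higher ones include all 124 junctions listed in LPS only, and the lower ones all 140 listed in Sham only. Those pass 2-fold by construction, since 2 reads against the fill-in give a log2 ratio of 1.86 for LPS reads and -2.78 for Sham reads. For them the call repeats the listing. With the fill-in counted as 1 read, 76 members were higher (15.2%) and 221 lower (44.1%), against 18.7% and 43.3% of all circRNAs. Of the members, 297 had fewer than 10 reads over both libraries. Among the 204 with at least 10, 39 were higher (19.1%) and 73 lower (35.8%), against 29.1% and 29.6% of all circRNAs with such reads. The median log2 ratio was -0.38 in these 204 members and -0.08 in all 1580 circRNAs.

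These counts depend on how the libraries are scaled. Over the 1757 circRNAs listed in both, the median log2 ratio was -0.46, which is also the value of a circRNA with equal read numbers, so a scale set by this median compares read numbers without regard to depth. With it, 174 members were higher (34.7%) and 197 lower (39.3%), against 39.0% and 39.1% of all circRNAs. For the 323 circRNAs with a sum of at least 50 reads, a scale chosen after seeing the data, the median was 0.44, and 140 members were higher (27.9%) and 247 lower (49.3%), against 33.7% and 48.0%. The leading shares and switches above are not touched by this choice.

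Of the 69 host sums, 5 were at least 2-fold higher in LPS and 12 at least 2-fold lower, against 12.0% higher and 14.3% lower of 483 hosts in the whole table, with a median log2 ratio of -0.21 in the members and -0.16 in the 483. On the scale of all shared circRNAs the split was 20 higher and 3 lower, and on that of circRNAs with at least 50 reads it was 1 higher and 22 lower. The balance of higher and lower hosts is therefore set by the scale. Each of the 5 and 12 hosts had the same sign on all of these scales. Polr2m, Prex2 and Nav2 were past 2-fold on each of them among the lower hosts, and Pstpip2 among the higher ones.

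Pstpip2, an adaptor protein of macrophages, had 14 Sham reads (367 CPM) and 104 LPS reads (1981 CPM), a log2 ratio of 2.39. Its 5 junctions lay on chromosome 18, and the leader from 74256510 to 74265662 had 9 and 56 reads. The junction from 74256510 to 74273012, on the same start, had 3 and 32. Nf2, which encodes the tumour suppressor merlin, had 66 and 234 reads, a log2 ratio of 1.36, with 41 and 178 of them on the junction from 85057352 to 85061960 on chromosome 14. Sbno1, Ptk2 and Ankrd44, each with fewer than 20 Sham reads, had log2 ratios of 1.10, 1.09 and 1.09. The part of cell composition in these sums was not tested.

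In the other direction, Polr2m, a subunit of RNA polymerase II, had 71 Sham reads (1863 CPM) and 21 LPS reads (400 CPM), a log2 ratio of -2.20. In Polr2m 4 junctions began at 78051192 on chromosome 8, and those ending at 78055624 and 78057674 went from 28 and 32 reads to 2 and 11. Prex2 followed with the values given above, and Nav2, a neuron navigator protein, had 49 Sham and 17 LPS reads and a log2 ratio of -1.96. Pde5a, the phosphodiesterase of cyclic GMP, had 33 and 18 reads and a log2 ratio of -1.32. Also past 2-fold in this direction were Gigyf2, Sptan1, Specc1l, Erc1, Mkln1, Atrnl1 and Kdm1a. Col3a1 had too few LPS reads for this comparison. Its 9 junctions had 70 Sham reads and 2 LPS reads, and 8 of the 9 were listed in Sham only. The other markers listed with it, Npnt and Pdgfra, had more reads in LPS.

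Within a host the junctions did not always move together. Of the 54 hosts with 2 or more junctions of at least 10 reads over both libraries, 14 had junctions at least 2-fold higher and junctions at least 2-fold lower in LPS. Another 13 had such junctions only in the higher direction, 23 only in the lower direction, and 4 had none. Both directions were thus found in 25.9% of these members, against 18.7% of the 209 hosts of the whole table with 2 or more such junctions, where most hosts have fewer junctions. Only higher junctions were found in 24.1% of the members and 26.8% of the 209 hosts, and only lower ones in 42.6% and 37.3%. Neither was found in 7.4% and 17.2%. Other scales were tried for these counts after the data had been seen. With that of all shared circRNAs 17 members had both directions, 19 only higher and 14 only lower junctions, and on that of circRNAs with at least 50 reads 12, 9 and 29, so the balance of the single directions is set by the scale. Among the 14 were Crim1, Gtf2i, App, Rere, Rtkn2, Ltbp1 and Ttc3. In Ttc3, the junction from 34612627 to 34631134 on chromosome 11 went from 15 reads to 2, whereas that from 34726016 to 34727930 went from the fill-in to 22 reads, at least 3.37-fold higher. The leader of Ttc3 had 118 Sham and 191 LPS reads, 3096 and 3638 CPM. In Atp9b, a P-type ATPase of the flippase family, the junction from 77484239 to 77489468 on chromosome 18 had 19 LPS reads and was at the fill-in in Sham, while its neighbour from 77477060 with the same end had 8 Sham reads and was at the fill-in in LPS.

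The members were also grouped by function, and the shares of each list are to be read beside the 35.7% higher and 43.3% lower of all circRNAs. The lists do not hold every member with a given function, so each count covers the listed genes only. As above, a junction listed in 1 library only counts as higher or lower by construction. The list of kinases, phosphatases and small GTPase regulators, with 95 single host names, held 11 members with 69 junctions. Of these junctions, 22 were at least 2-fold higher (31.9%) and 25 lower (36.2%). Their median log2 ratio was -0.10, against -0.46 for all circRNAs, the value of equal read numbers. Of the 69 junctions, 33 had at least 10 reads over both libraries, and all circRNAs with such reads had a median of -0.08. Among the 11 members, Arhgap10 had 203 Sham and 315 LPS reads and Dock4, an exchange factor for Rac, 171 and 145. Another junction led in 3 of these 11 hosts. Prex2, Agap1, Evi5 and Rps6ka5 also have such functions but were not on this list, and Asap2 and Ptprm were counted on others. Prex2 had 5 higher and 7 lower of 15 junctions, and Agap1 2 and 4 of 8. Evi5 had 0 higher and 3 lower of 6, and Rps6ka5 3 and 0 of 7. Chromatin and transcription regulators, with 52 names, held 7 members with 46 junctions, 11 higher (23.9%) and 20 lower (43.5%, near that of all circRNAs), with a median of -0.65. Ehmt1 had 81 Sham and 69 LPS reads, Rere 77 and 67, and Kdm5a, a histone demethylase, 71 and 70. Of the members described above, Gtf2i, Ikzf1 and Ubn2 were not on this list. Gtf2i had 4 higher and 6 lower of 14 junctions, Ikzf1 2 and 1 of 5, and Ubn2 0 and 4 of 6.

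Matrix, adhesion and junction genes, with 38 names, held 5 members, Col3a1, Ltbp1, Magi3, Ptprm and Itga8, with 31 junctions, 5 higher (16.1%) and 26 lower (83.9%). The median of -2.78 is the value of 2 Sham reads against the fill-in, and only 4 of the 31 junctions had at least 10 reads over both libraries. Of these hosts only Ltbp1 had 10 reads in each library, and its sum went the other way, with 16 Sham and 39 LPS reads and a log2 ratio of 0.80. Magi3, a scaffold protein of cell junctions, went from 20 Sham reads to 2 LPS reads. The integrin gene Itga8 had 14 and 4. Adamts17, the matrix protease gene described above, was not on this list. It had 105 Sham and 245 LPS reads, a log2 ratio of 0.76, with 2 higher and 2 lower of its 5 junctions. Actin, microtubule and cilium genes, with 58 names, held 4 members with 23 junctions, 7 higher (30.4%) and 10 lower (43.5%), near the shares of all circRNAs, with a median of -0.85. Specc1l, a cytoskeletal crosslinker, had 68 and 42 reads, Myo9a, an unconventional myosin, 18 and 48, and the spectrin gene Sptan1 39 and 22.

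Vesicle and membrane trafficking genes, with 53 names, held 3 members, Asap2, Ank3 and Ap3b1, with 15 junctions, 7 higher and 7 lower (46.7% each). Only 3 of these 15 junctions had at least 10 reads over both libraries. Ank3, which encodes ankyrin G, had 5 Sham and 28 LPS reads, 20 of the latter on a junction from 20259263 to 20303087 on chromosome 20 that was at the fill-in in Sham. Ap3b1, a subunit of an adaptor complex of endosomes, had 18 and 15 reads. RNA processing and RNA-binding genes, with 49 names, held 2 members, among them Gigyf2, with 15 junctions, 3 higher (20%) and 6 lower (40%) and a median of 0.17. Of these 15 junctions, 9 had at least 10 reads over both libraries. The ubiquitin list, with 44 names, held Usp32, a deubiquitinase with 41 and 72 reads, and Senp6, a SUMO protease with 19 and 9. Of their 11 junctions 3 were higher (27.3%) and 5 lower (45.5%), with a median of -0.57, and only 3 had at least 10 reads over both libraries. Ttc3, described above as a ubiquitin ligase, was not on this list. It had 136 Sham and 217 LPS reads, with 2 higher and 2 lower of its 5 junctions. The list of innate immune and NF-kappaB signalling, with 23 of its 68 genes among the single host names, held 0 members, and members made up 3.44% of all such names. The remaining 46 members were on none of these lists.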

How the data were processed

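A circRNA library of each group, Sham and LPS, was made from rat lung. The authors deposited a table of 4734 circRNAs with junction positions, host names and a value per library headed TPM. From the values, these are CPM, junction reads scaled by the authors to the same total per library without a length term. The submitters' processing notes name the rn6 build, CASAVA 1.8 and BWA, and positions are given in rn6. The circRNA caller is not given in the sources used here.

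The CPM of 1 read was worked out per library from its smallest values, and read numbers were rounded with a tolerance of 0.02 reads. They set depth, Wilson intervals, read minimums and the 0.5 reads added before log2 ratios. No count test was run. All 80 hosts matched the RefSeq gene table of GRCr8, 79 by symbol and 1 by synonym. Sequences around the junctions were not used here. The recovery of read numbers and the 2-fold calls were first tested on simulated data. Changes of leader and kinds of pairs were tested on constructed cases, and the other steps were not tested in this way.

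Hosts named are the 12 with most junctions, the 10 with most reads, the 6 highest and 6 lowest leading shares (at least 30 reads in each library), clear switches, the 5 largest host sum ratios in each direction, the 6 with most junctions on a position, hosts of the primer table of the study, and those with most reads per list. The members and lists were chosen with earlier results of these data known. Python 3.11.15, numpy 2.4.6, pandas 2.3.3 and scipy 1.17.1 were used.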

Additional observations from a re-analysis of the deposited data

How the results depend on the processing

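No paired analysis was possible because Sham and LPS tissue came from different rats, and with 1 library per group no replicate could be left out. With a limit of 4 circRNAs per host there were 166 hosts, and with 8 there were 10. Counting circRNAs with several host names for each name gave 169 hosts and a reuse of positions of 34.4%. Of the 89 names this adds, 24 occur in at least 100 circRNAs, with U6 in 881. How many of these pairs join different loci was not counted. In hosts with at least 8 circRNAs the median leading share was 42.4% in Sham and 40.4% in LPS. With at least 10 reads over both libraries, reuse of positions was 59.8%, 39 members were higher and 73 lower, and 91.7% were listed in both libraries. With at least 30 reads in each library, 9 hosts of 46 had another leader and 4 a clear switch, as fewer hosts are compared. With the fill-in as 1 read, 76 members were higher, since 2 or 3 LPS reads against the Sham fill-in no longer pass 2-fold. Without a read minimum 26 host sums differed 2-fold. The share of hosts with another leader lay between 19.6% and 25.7% under its alternatives. Clear switches with 99% intervals numbered 5, without Rtkn2 and Strn3. Depth limits the hosts with few reads most, since at 10 reads an interval of a share covers much of its range.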

Other observations

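A further 35 circRNAs named a member host beside other genes, mostly families of small RNAs, and were not counted for the members. They belonged to 22 hosts and held 231 Sham and 439 LPS reads, and 26 of them used a start or an end of a member junction. The most abundant named Gtf2i and lay on chromosome 12 from 25431687 to 25435591, with 23 Sham reads (603 CPM) and 138 LPS reads (2628 CPM). It has the same end as the Gtf2i junction from 25431710, which had 186 and 280 reads, so the change was larger on the longer of these junctions. A circRNA that named Ttc3, from 34611539 to 34614139 on chromosome 11, had 40 and 63 reads and shared its end with the leading Ttc3 junction. A circRNA that named Agap1, from 96745723 to 96751314 on chromosome 9, had 34 and 11 reads, while the Agap1 junction from 96746440 with the same end had 9 and 12. When these circRNAs were counted for the members, an alternative chosen after seeing the data, 16 hosts had another leading junction. The added host was Evi5, a GTPase activating protein of Rab, where the circRNA from 2924636 to 2925809 on chromosome 14 had 3 Sham and 26 LPS reads, beside 14 and 24 for the junction from 2924636 to 2924865.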
